A study of Mus musculus with 16 samples.

Results

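The response shared by 3 microRNA mimics was described in mouse CD4+ T cells that cannot make most microRNAs of their own. It is the mean difference of the cells given miR-23a, miR-24 or miR-27a from cells given a control mimic. A gene counts as shared only where all 3 single differences have the same sign. Of 23337 gene symbols, 13327 had enough reads to be tested, and 7952 of these met the sign rule. A total of 106 also had an adjusted p under 0.05 for the mean difference, 31 higher with the mimics (0.233% of the genes tested) and 75 lower (0.563%), or 0.795% in either direction. These 106 are called genes below. Of the 107 genes under that adjusted p, 1 had mixed signs, so the sign rule took out 1 gene. Adjusted p-values come from the quasi-likelihood test of edgeR, adjusted over the 13327 genes by Benjamini-Hochberg, and fold changes are log2 values, mimics minus control, with the standard error of the fit.

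The 3 mimic groups had 4 libraries each. The control mimic is of unstated sequence and had 4, of which replicates 2 to 4 were used, so that 15 of 16 libraries entered. Control replicate 1 held 51474 gene reads and was left out, against 2120408 to 13714841 in the 12 mimic libraries and 7272860 to 11367506 in the 3 control libraries used. Every group, control included, came from C57BL/6 mice with floxed Dgcr8, a Cd4-cre transgene and no Tbx21, which encodes the Th1 factor T-bet. Cd4-cre acts in T cell precursors that express CD4, and live CD4+ cells carrying the RosaYFP reporter of Cre activity were sorted. Activation with antibodies to CD3 and CD28 took 3 days, in IL-4 at 10 U/ml, and a rest of 2 days in IL-2 at 20 U/ml came after it. Each mimic was given at 500 nM on day 1 and again on day 4. The labels do not say which libraries came from separate mice, so the p-values measure the spread between libraries, which may be technical.

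DGCR8 works with the nuclease DROSHA to cut microRNA precursors out of longer transcripts, and T cells without it lose most microRNAs. A mature microRNA in an Argonaute protein pairs with messenger RNAs mainly through its seed, bases 2 to 8, and lowers their stability and translation. miR-23a, miR-27a and miR-24-2 are made from neighbouring hairpins of the same primary transcript. The cluster has been linked to restraint of type 2 cytokine production in T cells. A mimic is a synthetic double-stranded RNA that is loaded like a natural microRNA and so bypasses DGCR8. The mature sequences, 5′ to 3′ from RefSeq on GRCm38.p6, are shown because the sites counted below follow from their seeds, given in capitals.
miR-23a: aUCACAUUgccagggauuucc
miR-24: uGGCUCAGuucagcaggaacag
miR-27a: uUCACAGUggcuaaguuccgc
The labels give no arm, and the 3p arms were assumed. Their genes lie on the plus strand of chromosome 8, miR-23a at 84208563 to 84208583, miR-27a at 84208727 to 84208747 and miR-24-2 at 84208875 to 84208896. The 3 seeds differ, so that no 7-base or 8-base site counted below is shared between the mimics by construction. The seeds of miR-23a and miR-27a both begin with UCACA, however, and their 8-base sites both end in TGTGAA. Shorter matches can thus be shared by these mimics and were not counted.

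The calls rest strongly on the control libraries and on the replicate number as a term of the fit. Without control replicate 3, 1 gene was called higher (Angptl2) and 0 lower, without control replicate 4 there were 4 and 4, and without control replicate 2 there were 302 and 325. Without the replicate number, 0 genes were called higher and 7 lower. The sign of the mean difference was kept by the called genes in the alternative fits, which share most libraries with the fit that chose them, so this is no sign of stability. The rule of 3 equal signs was met by 99 of the 106 genes with GC correction, by 103 with the Rn45s share as a term and by 103 without replicate number 3. With the Rn45s share as a term, 27 genes were called higher and 60 lower, but only 38 of the 106 calls were kept, 12 of 31 higher and 26 of 75 lower. Of the named genes, Shroom3, Gfod1, Lrdd, Wdr62, Uhrf1, Lipe, Gpd2, Nfatc3, Klf2, Mrps33, Acvr2a, Rap1a, Maf, Otud1, Chst2, Cd96, P2rx7 and St8sia6 had an adjusted p of 0.0556 to 0.208 there. Without control replicate 3, 691 genes were lower at an unadjusted p under 0.05, and without the replicate number 861 were higher; DESeq2 with the replicate number called 418 higher and 424 lower. With the replicate number and all 3 controls, 1300 genes were lower and 1288 higher at that unadjusted p. These counts, like the 691 and the 861, include only genes with 3 equal signs. In either direction and without that rule, 2688 genes passed.

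The labelled cell type and genotype were checked against the counts. Of 9 listed CD4 T cell markers, 6 were among the gene symbols, and these 6 had reads in all 15 libraries. Their summed level was 2445 to 4102 CPM (reads per 1e6 gene reads, with TMM scaling) with the mimics and 3732 to 4505 CPM with control mimic. That sum differed at p = 0.0044 in an exact permutation test over libraries (adjusted p = 0.0835 over 19 library measures, smallest possible p 0.0022). Cd28, a called gene, made up 30.3% to 55.4% of that sum with the mimics and 50.8% to 58.0% with control mimic. Without Cd28 the sum was 1230 to 2117 CPM with the mimics and 1569 to 2147 CPM with control mimic, and the groups overlapped. Of 67 markers of other cells, 11 were at 0 in all 15 libraries and 18 had reads in all 15, and the adjusted p of each of the 10 sums of such markers was 0.835 or more. The ribosomal RNA transcript Rn45s took 1.17% to 19.1% of gene reads with the mimics and 0.3002% to 4.41% with control mimic (adjusted p = 0.835). That permutation test does not use the replicate number. In replicate 2 the share was 1.77%, 5.30% and 5.31% with miR-23a, miR-24 and miR-27a, against 4.41% with control mimic. In the same order it was 9.81%, 19.1% and 10.2% against 2.25% in replicate 3, and 2.16%, 10.3% and 1.17% against 0.3002% in replicate 4. Dgcr8 had 32.9 to 57.7 CPM with the mimics and 31.99 to 48.3 CPM with control mimic, a count over the whole gene that does not check the deleted part. Tbx21 had 0 to 5.13 CPM with the mimics and 0.534 to 1.80 CPM with control mimic.

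Among the named genes that fell were 6 transcription factor genes of helper and resting T cells, Epas1, Ikzf3, Maf, Rora, Klf2 and Tcf7. Epas1, which encodes HIF-2alpha, had 540, 936, 683 and 777 CPM in the miR-23a libraries and 123, 327, 215 and 413 CPM in the miR-24 libraries. It had 234, 623, 362 and 886 CPM in the miR-27a libraries, against 1286, 1636 and 2148 CPM with control mimic. All 12 mimic libraries lay below all 3 control libraries. The mean difference was -1.67 ± 0.19 (adjusted p = 0.00107), made of -0.93 for miR-23a, -2.51 for miR-24 and -1.57 for miR-27a. The 3 mimics differed from each other (adjusted p = 0.00219). Its call was lost only without control replicate 3 among the 15 fits that each left out 1 library.

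Ikzf3 encodes Aiolos, a zinc finger factor of lymphocytes. Its level was 585, 767, 238 and 220 CPM with miR-23a, 636, 301, 143 and 117 CPM with miR-24, and 246, 337, 117 and 378 CPM with miR-27a, against 1037, 863 and 1028 CPM with control mimic. Again no mimic library reached a control library. Ikzf3 fell by 1.96 on the log2 scale (SE 0.33, adjusted p = 0.0199), and a difference between the mimics was not detected (adjusted p = 0.403). The related Ikzf1, which encodes Ikaros, was not called (-0.59 ± 0.15, adjusted p = 0.064), with -0.06 for miR-23a, -0.63 for miR-24 and -1.07 for miR-27a.

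Maf encodes c-Maf, a factor that acts on the Il4 and Il10 genes in helper T cells. Maf had 74.9, 178, 186 and 180 CPM with miR-23a, 98.4, 153, 120 and 179 CPM with miR-24 and 57.1, 99.3, 137 and 370 CPM with miR-27a. With control mimic it had 263, 541 and 487 CPM. Of the 12 mimic libraries, 11 lay below all 3 control libraries, and miR-27a replicate 4 lay above control replicate 2. The 3 differences were -1.22 ± 0.32 for miR-23a, -1.32 ± 0.33 for miR-24 and -1.31 ± 0.32 for miR-27a, for a mean of -1.29 ± 0.26 (adjusted p = 0.0349). No difference between the mimics was detected (adjusted p = 0.963), which at these standard errors does not show that they act alike. The call was lost without either control replicate 3 or control replicate 4 and in 6 of the 12 fits without 1 mimic library.

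The nuclear receptor gene Rora averaged 51.6 ± 11.7, 21.5 ± 5.22 and 35.8 ± 13.6 CPM with miR-23a, miR-24 and miR-27a (SD, n = 4 each), against 87.3 ± 13.3 CPM with control mimic (n = 3). Its mean difference was -1.20 ± 0.17 (adjusted p = 0.00762), with all 12 mimic libraries below all 3 control libraries. Klf2 keeps T cells quiescent and promotes their homing to lymph nodes, and had 43.0 ± 12.6, 25.8 ± 5.79 and 40.1 ± 13.01 CPM with the 3 mimics in the same order, against 66.0 ± 4.30 CPM with control mimic. Klf2 fell by 1.06 (SE 0.21, adjusted p = 0.0312), again without overlap. Tcf7, which encodes TCF-1, shows how a shared sign can rest mostly on 1 mimic. It averaged 642 ± 347 CPM with miR-23a, 107 ± 41.6 CPM with miR-24 and 500 ± 218 CPM with miR-27a, against 623 ± 311 CPM with control mimic. Its 3 differences were -0.10 ± 0.26, -2.65 ± 0.25 and -0.42 ± 0.25, and the mimics differed from each other (adjusted p = 0.000114).

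**Figure D1:**
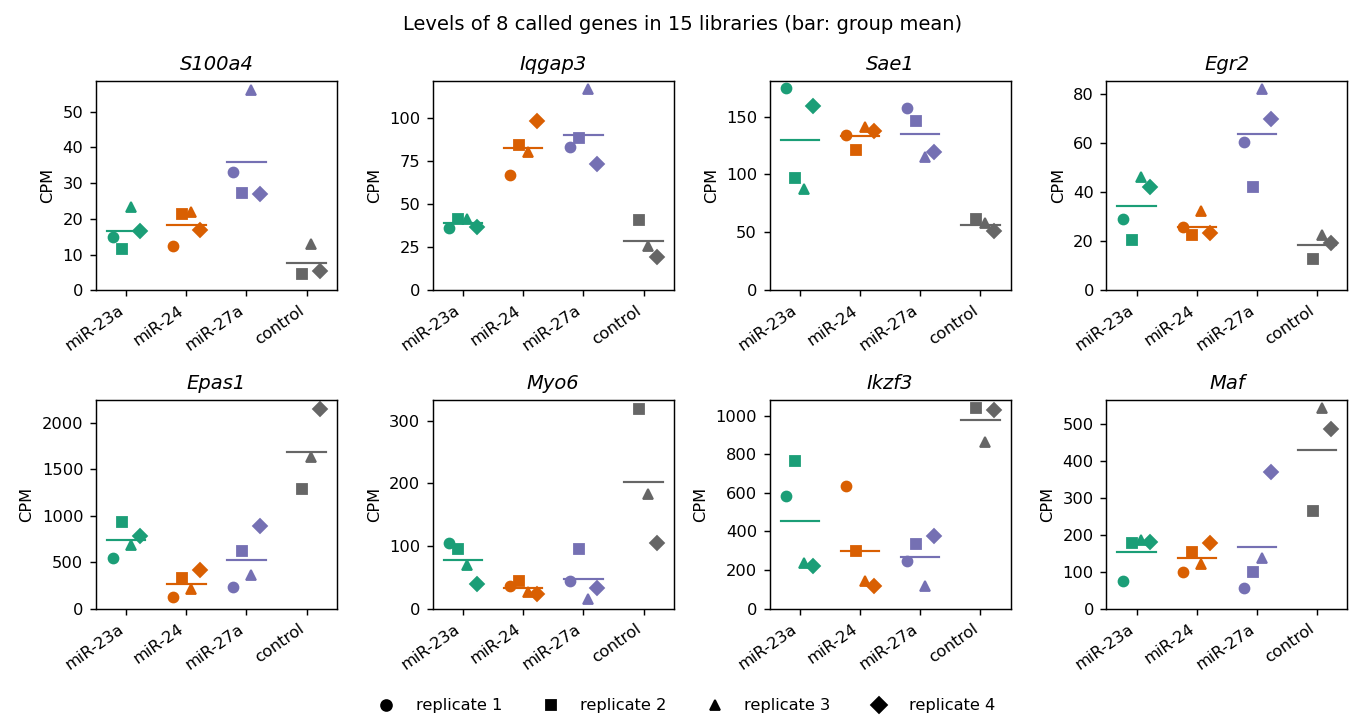
Levels in CPM (y axis from 0) of 4 genes called higher (top) and 4 called lower (bottom) with the mimics, with 1 point per library, 4 each for miR-23a, miR-24 and miR-27a and 3 for control mimic. Marker shape is the replicate number and the bar the group mean. Sae1, Epas1 and Ikzf3 show no overlap between the 12 mimic and the 3 control libraries, while Maf overlaps in miR-27a replicate 4.

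Surface receptors and their signalling partners were also among the called genes that fell. Cd28, the costimulatory receptor through which the cells had been stimulated, had 1100.0, 1683, 1985 and 1858 CPM with miR-23a, 1120.1, 1626, 1726 and 1518 CPM with miR-24 and 786, 1205, 1027 and 1073 CPM with miR-27a. With control mimic it had 2593, 2217 and 2163 CPM, above all 12 mimic libraries. The mean difference of -0.64 ± 0.14 (adjusted p = 0.0419) was lost in a fit corrected for GC content (-0.34, adjusted p = 0.263), in which the miR-23a difference was 0.0061, so that the 3 signs no longer matched. Acvr2a, a receptor for activins, differed by -1.16 ± 0.26, and Cd96, an inhibitory receptor of the nectin-binding family, by -1.36 ± 0.30 (adjusted p = 0.0493 and 0.0485). The raw levels overlapped for both genes, although 9 of 9 differences between libraries of the same number were negative for each. Cd96 had 74.7 CPM in miR-24 replicate 1, above the control libraries at 63.3, 58.3 and 26.1 CPM.

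The ATP-gated channel gene P2rx7 had 17.8 ± 9.37, 4.79 ± 1.85 and 8.11 ± 3.81 CPM with miR-23a, miR-24 and miR-27a, against 21.2 ± 13.6 CPM with control mimic, and a mean difference of -1.41 ± 0.27 (adjusted p = 0.0298). Its single differences were -0.47, -2.25 and -1.52, and the mimics differed (adjusted p = 0.00558). The raw levels overlapped, with 26.8 CPM in miR-23a replicate 1 against 13.4, 36.9 and 13.4 CPM in the control libraries. Rap1a, a small GTPase that activates integrins, differed by -1.26 ± 0.24 (adjusted p = 0.0312). Its levels were 283 ± 49.8, 315 ± 123 and 424 ± 87.4 CPM with the mimics, against 807 ± 363 CPM with control mimic, and the groups did not overlap. Nfatc3, a calcium-regulated factor of T cell activation, differed by -0.61 ± 0.13 (adjusted p = 0.0419) without overlap, and its adjusted p was 0.0696 with GC correction.

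Outside signalling, the called genes with the smallest p included a motor protein and a secreted factor. Myo6 encodes a myosin that moves toward the minus end of actin filaments. It had 105, 94.5, 70.4 and 39.3 CPM with miR-23a, 36.9, 44.5, 26.0 and 22.9 CPM with miR-24, and 44.6, 95.6, 16.2 and 33.2 CPM with miR-27a. With control mimic it had 318, 182 and 104 CPM, and miR-23a replicate 1 alone lay above the lowest control library. Myo6 fell by 2.11 (SE 0.24, adjusted p = 0.00107). Sfrp1, a secreted binder of Wnt proteins, averaged 197 ± 125, 66.9 ± 39.9 and 109 ± 78.3 CPM with miR-23a, miR-24 and miR-27a, against 479 ± 272 CPM with control mimic. Its mean difference was -1.63 ± 0.19 (adjusted p = 0.00107), with 9 of 9 differences between libraries of the same number negative, although the raw levels overlapped.

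Rbl2, which encodes the retinoblastoma relative p130, differed by -1.13 ± 0.17 (adjusted p = 0.0108) without overlap between the groups. Its levels were 431 ± 84.8, 202 ± 28.8 and 258 ± 98.9 CPM with miR-23a, miR-24 and miR-27a, against 647 ± 115 CPM with control mimic. Nipal1 (-1.89 ± 0.26), the sialyltransferase gene St8sia6 (-1.96 ± 0.37), the sulfotransferase gene Chst2 (-1.35 ± 0.24) and the deubiquitinase gene Otud1 (-1.34 ± 0.27) completed the named genes with the largest decreases. Nipal1 showed -0.50, -2.28 and -2.89 for miR-23a, miR-24 and miR-27a, and Chst2 -0.60, -2.05 and -1.41. The mimics differed for both (adjusted p = 0.00092 and 0.0111), and no such difference was detected for St8sia6 or Otud1 (adjusted p = 0.322 and 0.16). Mrps33, a mitochondrial ribosome subunit, and Gpd2, the mitochondrial glycerol-3-phosphate dehydrogenase, were called at -1.09 ± 0.23 and -0.61 ± 0.14. Mrps33 showed -0.60, -0.69 and -1.97 for miR-23a, miR-24 and miR-27a, and the mimics differed (adjusted p = 0.011). Of its same-number differences, 7 of 9 were negative. Control replicate 2, at 20.7 CPM, lay below all miR-23a and miR-24 libraries, whereas control replicates 3 and 4 had 49.9 and 48.8 CPM. With GC correction Mrps33 differed by -0.85 (adjusted p = 0.0587) and Gpd2 by -0.47 (adjusted p = 0.0944), so that neither was called. Gpd2 differed by -0.03 with miR-23a and by -1.42 with miR-24, and with GC correction its miR-23a difference was 0.13, against the sign rule.

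Some called genes were picked for mention after their values were seen. Runx1, a T cell transcription factor, differed by -0.79, -0.93 and -1.03 with miR-23a, miR-24 and miR-27a, and Hipk2, a nuclear kinase, by -0.86, -1.13 and -1.19. Sepp1, the selenium carrier selenoprotein P, differed by -1.17, -1.16 and -1.11, and the mimics were not found to differ (adjusted p = 0.98). Top1, the gene of DNA topoisomerase I, differed by -1.41, -1.22 and -0.39, and Hmgb2, a chromatin protein, by -1.99, -0.74 and -0.60 (adjusted p = 0.0696 with GC correction).

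The named genes that rose included ones with roles in mitosis, DNA methylation, SUMO attachment, early activation and lipid handling. Sae1 encodes a subunit of the SUMO-activating enzyme. Its level was 175, 96.8, 87.2 and 159 CPM with miR-23a, 134, 121, 141 and 138 CPM with miR-24 and 158, 146, 115 and 119 CPM with miR-27a, against 61.2, 58.0 and 51.1 CPM with control mimic. All 12 mimic libraries lay above all 3 control libraries. The differences were 1.07, 1.15 and 1.15 for a mean of 1.12 ± 0.20 (adjusted p = 0.023), with no difference detected between the mimics (adjusted p = 0.948). Uhrf1, which guides maintenance DNA methylation, had 127 ± 29.9, 123 ± 20.7 and 160 ± 43.7 CPM with miR-23a, miR-24 and miR-27a, against 62.0 ± 14.8 CPM with control mimic, also without overlap. Its mean difference was 1.07 ± 0.23 (adjusted p = 0.0419).

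Iqgap3, a scaffold protein of dividing cells, had 36.1, 41.2, 41.3 and 36.5 CPM with miR-23a, 66.9, 84.0, 80.5 and 98.0 CPM with miR-24 and 82.9, 88.6, 117 and 73.2 CPM with miR-27a. With control mimic it had 40.7, 25.7 and 19.5 CPM, so that miR-24 and miR-27a libraries lay above all controls and 2 of the 4 miR-23a libraries lay below control replicate 2. The mean difference was 1.29 ± 0.21 (adjusted p = 0.0185), and the mimics differed (adjusted p = 0.00474). Wdr62, a centrosome and spindle pole protein, differed by 1.05 ± 0.27, 1.10 ± 0.27 and 1.14 ± 0.28 with miR-23a, miR-24 and miR-27a, for a mean of 1.10 ± 0.24 (adjusted p = 0.0485).

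Egr2, a zinc finger factor induced by T cell receptor signals, had 29.0, 20.5, 46.0 and 42.2 CPM with miR-23a and 25.5, 22.5, 32.2 and 23.4 CPM with miR-24. It had 60.3, 42.2, 81.7 and 69.8 CPM with miR-27a, against 12.8, 22.6 and 19.4 CPM with control mimic. The miR-27a libraries were highest as a group, and 2 mimic libraries lay below control replicate 3. Egr2 rose by 1.11 ± 0.19 (adjusted p = 0.02). Cd2, an adhesion and costimulation receptor, averaged 147 ± 56.6, 255 ± 44.5 and 118 ± 24.3 CPM with miR-23a, miR-24 and miR-27a, against 71.9 ± 22.7 CPM with control mimic, a mean difference of 1.09 ± 0.22 (adjusted p = 0.0322).

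S100a4, a calcium-binding protein of motile cells, had 14.95, 11.5, 23.2 and 16.5 CPM with miR-23a, 12.4, 21.4, 21.9 and 17.0 CPM with miR-24, and 33.2, 27.4, 56.0 and 27.0 CPM with miR-27a. With control mimic it had 4.46, 12.8 and 5.41 CPM, and 2 mimic libraries lay below control replicate 3. The mean difference was 1.71 ± 0.26 (adjusted p = 0.0108). Angptl2, a secreted angiopoietin-like protein, was the called gene that stayed called in all 15 fits without 1 library. It averaged 13.9 ± 6.95, 39.8 ± 23.1 and 80.2 ± 40.6 CPM with miR-23a, miR-24 and miR-27a, against 9.82 ± 5.39 CPM with control mimic, a mean difference of 2.08 ± 0.28 (adjusted p = 0.0042). The 3 single differences of 0.79, 2.19 and 3.27 differed from each other (adjusted p = 0.000394), and 1 of 9 differences between libraries of the same number was negative.

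Scd2, a fatty acid desaturase, and Lipe, the hormone-sensitive lipase, were called at 1.23 ± 0.23 and 1.06 ± 0.21. Scd2 showed 1.16, 2.27 and 0.25 for miR-23a, miR-24 and miR-27a, so that 1 mimic moved it little, while Lipe showed 0.68, 1.41 and 1.08. The growth factor gene Hbegf had 9.62 ± 3.47, 47.2 ± 22.1 and 14.8 ± 8.93 CPM in the same order, against 6.54 ± 1.90 CPM with control mimic, a mean difference of 1.62 ± 0.30 (adjusted p = 0.0245). Shroom3, an actin regulator of cell shape (1.56 ± 0.33), Gfod1 (1.25 ± 0.24), the death domain gene Lrdd (1.22 ± 0.25) and the cilium gene Ahi1 (1.12 ± 0.25) were the remaining named genes that rose.

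**Figure D2:**
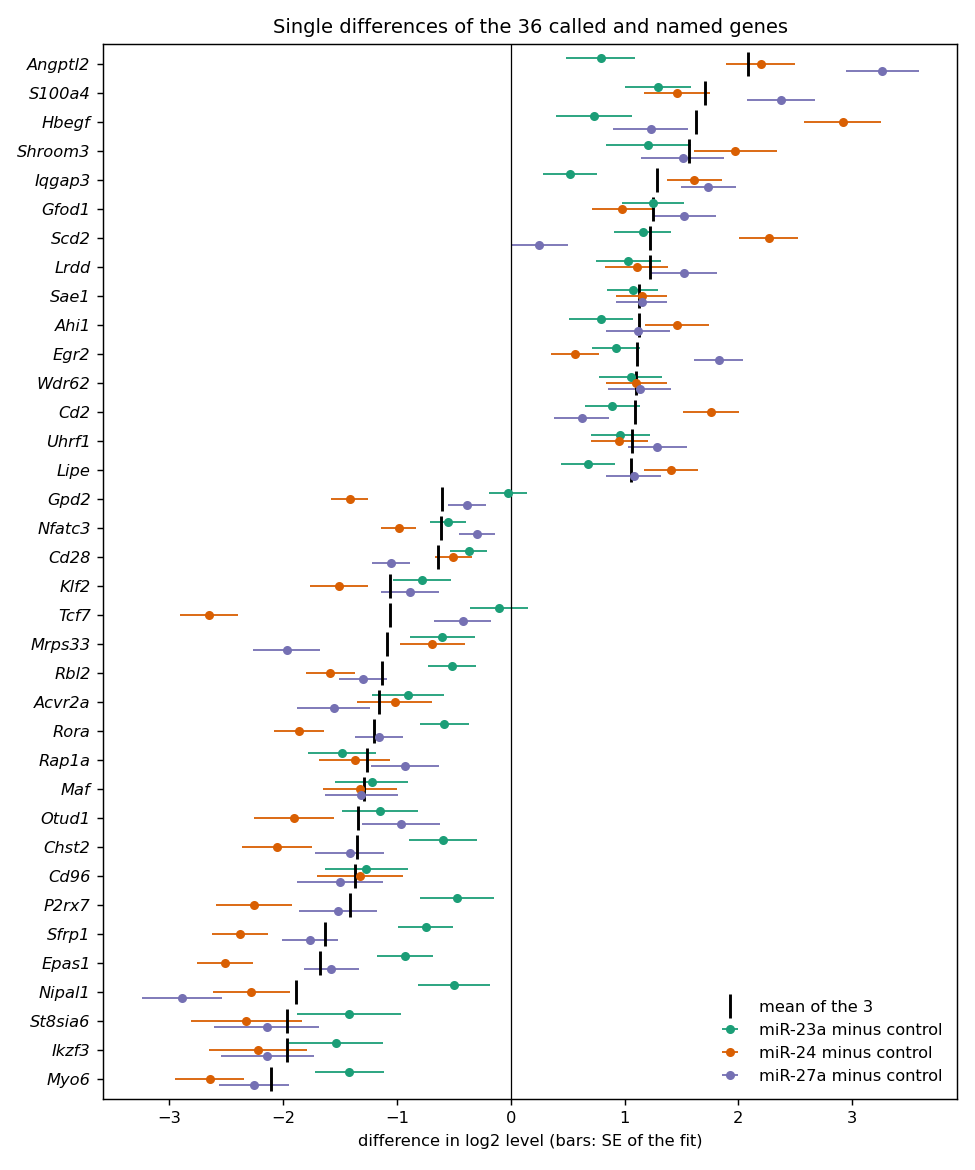
Single differences in log2 level from control mimic (x axis) of the 36 called and named genes (y axis, by mean difference), with points for miR-23a, miR-24 and miR-27a, bars for the SE of the fit and a black tick for the mean of the 3. The 3 points of Sae1, Wdr62 and Maf lie close together, whereas Tcf7 runs from -2.65 for miR-24 to -0.10 for miR-23a.

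A shared sign did not mean a shared size. A test between the 3 mimic groups, in which no control library enters, found a difference for 48 of the 106 called genes, 14 of 31 higher and 34 of 75 lower, against 986 of all 13327 genes (7.40%). These 48 also include Rora, Rbl2, Sfrp1, Myo6, P2rx7, Nfatc3, Cd28, Egr2, Cd2, S100a4, Hbegf and Scd2 (adjusted p = 0.000463 to 0.0247). The rule for calling did not use that test, but genes with large single differences can more readily pass both. The largest of the 3 decreases came from miR-23a for 20, from miR-24 for 32 and from miR-27a for 23 of the 75 genes. For the 31 genes that rose the largest increase came from miR-23a for 1, from miR-24 for 13 and from miR-27a for 17. Taken alone, miR-23a differed from control at an adjusted p under 0.05 for 0 genes higher and 35 lower (0.263%), miR-24 for 223 and 258 (3.61% of genes tested), and miR-27a for 169 and 152 (2.41%). Of the called genes, 0 of 31 higher and 16 of 75 lower passed that threshold with miR-23a alone. With miR-24 alone 27 and 45 did, and with miR-27a alone 26 and 42, so a called gene need not differ with each mimic. The 3 comparisons share the same 3 control libraries. Of the called genes, 22 of 31 that rose and 57 of 75 that fell had 9 of 9 same-number differences in that direction, against 4.13% and 4.39% of all genes. Without overlap between the 12 mimic and 3 control libraries were 5 of 31 and 24 of 75, against 0.548% and 0.660% of all genes. These last shares use the same values as the calls and are given as description.

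Cytokine genes of the type 2 programme did not move together. Il4 had 6.99, 22.5, 26.9 and 21.0 CPM with miR-23a, 10.9, 29.4, 16.1 and 18.8 CPM with miR-24 and 7.65, 20.9, 19.6 and 29.4 CPM with miR-27a, against 37.3, 30.4 and 33.9 CPM with control mimic. All 12 mimic libraries lay below the 3 controls, with differences of -0.58, -0.56 and -0.56, but the mean of -0.57 ± 0.22 was not called (adjusted p = 0.173, and 0.44 with GC correction). Il10 was just outside the threshold at -1.40 ± 0.32 (adjusted p = 0.0525), with -0.26 for miR-23a, -1.12 for miR-24 and -2.82 for miR-27a. Il13 averaged 94.0 ± 74.7, 194 ± 228 and 232 ± 303 CPM with miR-23a, miR-24 and miR-27a, against 93.7 ± 49.1 CPM with control mimic (0.80 ± 0.51, adjusted p = 0.385). Il5, at 1.28 to 8.05 CPM with the mimics and 0.623 to 3.75 CPM with control mimic, was not called either (0.40 ± 0.54, adjusted p = 0.693).

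Over the 28 tested genes of the Th2 list, 0 were called higher and 3 lower (Epas1, Maf and Tcf7), 6 had 3 positive and 11 had 3 negative differences, and the median was -0.42. Over all 13327 genes, 31.1% had 3 positive and 28.6% had 3 negative differences and the median was 0.01. Of 7 Th17 genes, 2 were called lower (Maf and Rora), and of 18 quiescence and homing genes 2 (Klf2 and Tcf7), with medians of -0.43 and -0.27. Of 12 inhibitory receptors, 16 Th1 and cytotoxic genes, 12 regulatory T cell genes and 23 cytokine receptors, STATs and SOCS genes, 0 were called in either direction. Of 22 calcium and NFAT genes, 2 were called lower (P2rx7 and Nfatc3), with a median of -0.17. The lists were described by counts and medians with no set test.

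Lists of proliferation and growth genes held few calls, and their signs depended on the fit. Of 25 replication-dependent histone genes, whose transcripts end in a stem loop in place of a poly(A) tail, 20 had 3 positive differences, 3 had 3 negative differences and 0 were called, with a median of 1.07 (0.79 with GC correction). With the Rn45s share as a term the list turned, with 5 genes of 3 positive and 9 of 3 negative differences and a median of -0.20. The summed level of the listed histone genes was highest, at 2045 CPM, in miR-24 replicate 3, the library with the highest Rn45s share (19.1%), and was 325 CPM in control replicate 4, among the lowest, where that share was 0.3002%. The spread between libraries was wide for these genes. Hist1h2ab differed by 1.29 ± 0.60 (adjusted p = 0.24) and Hist1h1b by 1.25 ± 0.65 (adjusted p = 0.30). Of 22 genes of the pentose phosphate route and nucleotide synthesis, 14 had 3 positive and 2 had 3 negative differences, 0 were called and the median was 0.33 (0.15 with the Rn45s term). Of 64 cytosolic ribosome genes 35 had 3 positive and 4 had 3 negative differences, with 0 called and a median of 0.25. With the Rn45s term the ribosome genes had 13 and 12 such members and a median of 0.019. Of 37 replication and G1/S genes 1 was called higher (Uhrf1), with 16 of 3 positive and 8 of 3 negative differences and a median of 0.13. Of 41 mitosis and G2/M genes 1 was called higher (Iqgap3), with 12 of 3 positive and 12 of 3 negative differences and a median of -0.04. The lists of RNA sensing and stress genes held no called gene: 25 interferon response genes had a median of 0.04, 17 sensors of double-stranded RNA -0.03, 23 p53 targets 0.31 and 39 integrated stress genes 0.33. Over the 35 lists together, 5 of 930 tested members were called higher and 12 lower, or 1.83%, against 0.795% of all genes.

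Genes of the microRNA route itself were not called. Of 26 genes of microRNA processing and silencing, 5 had 3 positive and 13 had 3 negative differences, with a median of -0.25 that was -0.06 with GC correction. Drosha differed by -0.52 ± 0.28 (adjusted p = 0.30), Dicer1 by 0.01 ± 0.14 (adjusted p = 0.98) and Xpo5, the export receptor of microRNA precursors, by 0.69 ± 0.26 (adjusted p = 0.17). Of 17 microRNA genes and hosts, 13 had 3 positive and 1 had 3 negative differences, with 0 called and a median of 0.57 (0.77 with GC correction). Reads here come from the longer transcripts, and levels were low: Mir23a had 0 to 2.93 CPM with the mimics and 0 to 1.55 CPM with control mimic. The mature mimics themselves are not measured by these gene counts, so the transfected agent could not be checked.

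**Figure D3:**
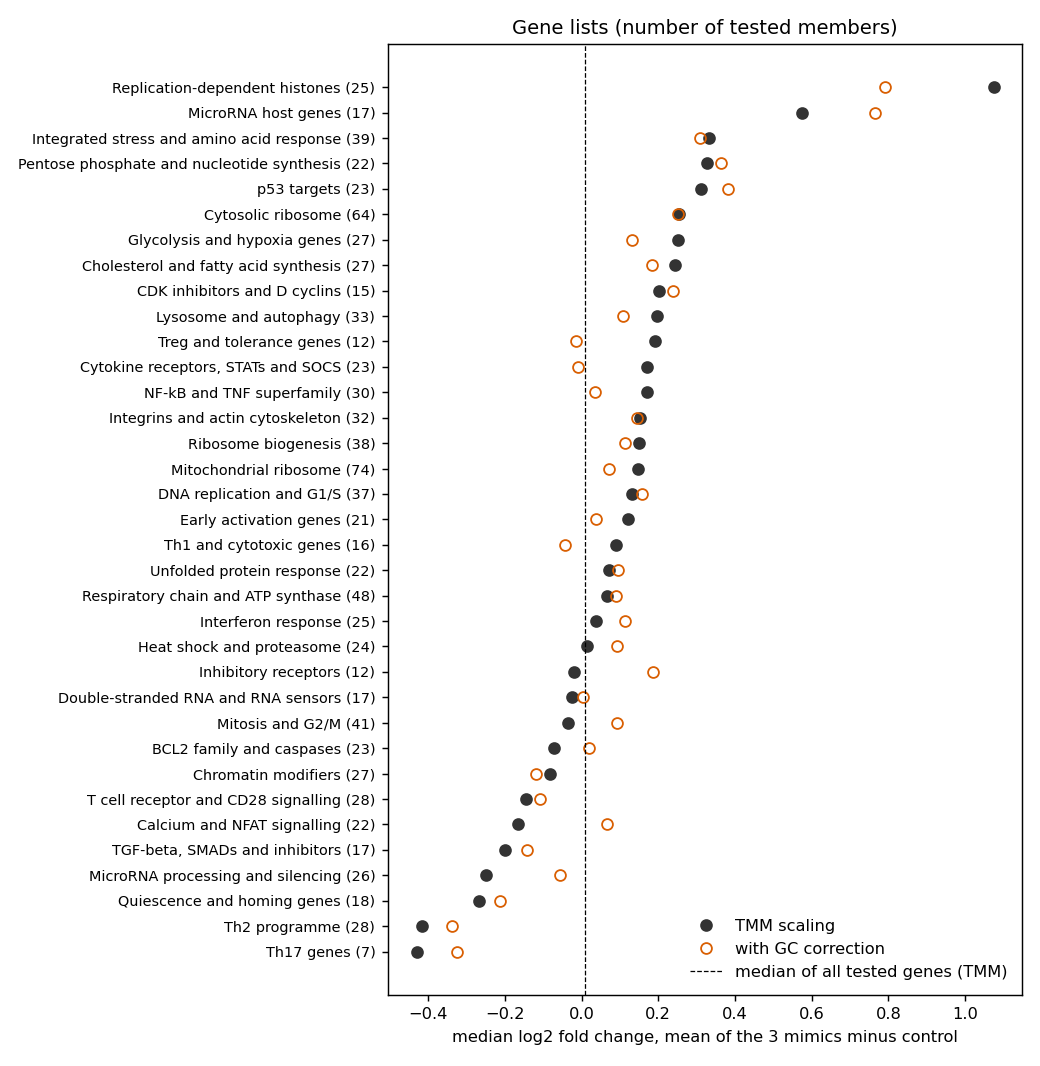
Median log2 fold change (x axis, mean of the 3 mimics minus control mimic) of 35 gene lists (y axis, with the number of tested members), as filled points for TMM scaling and open points with GC correction. The dashed line is the median of all tested genes, 0.01, and the histone list lies farthest to the right at 1.07, although its median was -0.20 with the Rn45s share as a term.

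Seed sites of the mimics were frequent in the genes that fell, at different rates for the 3 microRNAs. The longest annotated 3′ UTR was searched for 105 of 106 called and 12306 tested genes (GENCODE M21, GRCm38). The sites, on the transcript strand, were the 8-base site AATGTGAA (miR-23a), CTGAGCCA (miR-24) or ACTGTGAA (miR-27a) or its first or last 7 bases. A miR-23a site lay in 63.5% of the 74 genes that fell, 19.4% of the 31 that rose and 26.5% of all tested genes. For miR-27a the shares were 58.1%, 22.6% and 31.9%, and for miR-24 40.5%, 9.68% and 29.3%. At least 1 mimic had a site in 85.1% of genes that fell, 38.7% of those that rose and 57.6% of all, and sites of 2 or 3 mimics lay in 59.5%, 12.9% and 24.4%.

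Longer UTRs hold more sites by length alone. The median UTR had 2228.5 bases for genes that fell, 1200.0 for those that rose and 1410.5 for all. Per 1000 bases, genes that fell held 0.407 miR-23a sites, 0.369 miR-27a sites and 0.233 miR-24 sites, against 0.199, 0.241 and 0.232 over all tested genes. The miR-24 density was thus near that of all genes. Among genes with a UTR of 1500 bases or more, 75.0% of 52 that fell and 43.0% of 5872 tested held sites of 2 or 3 mimics. Of the 10 genes that rose and had such a UTR, 40.0% did, near the share of all. With GC correction the shares for the 95 genes that fell were 51.6% for miR-23a, 38.9% for miR-24 and 57.9% for miR-27a. The densities of those genes were 0.335, 0.265 and 0.377 sites per 1000 bases in the same order. Without that correction, transcripts of the genes that fell had a median GC content of 45.9%, against 49.6% for all. Whether base composition contributes to the site rates was not tested.

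**Figure D4:**
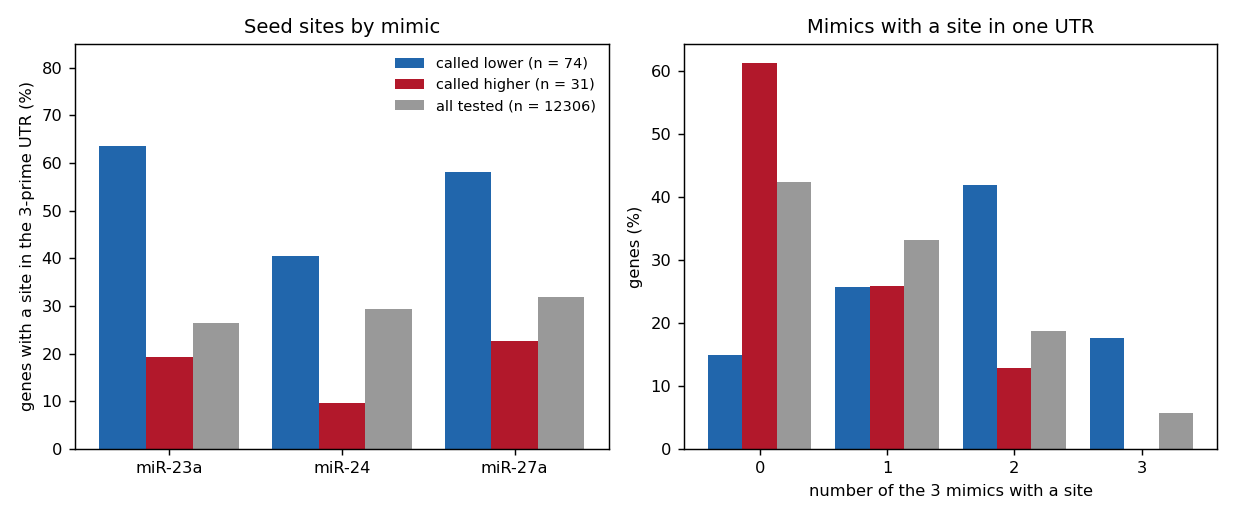
Share of genes (y axis, %) whose longest 3′ UTR holds a seed site of each mimic (left) or of 0, 1, 2 or all 3 mimics (right), for genes called lower, genes called higher and all tested genes. Sites of 2 mimics lie in 41.9% of the 74 genes that fell and in 18.8% of all tested genes.

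For some of the genes described above, the mimic with a site was the one with the largest decrease, and for others it was not. The 8-base sites in the 3′ UTRs of some of these genes are printed in capitals with 8 bases on each side, on the gene's strand of GRCm38. They name which mimic could pair with each transcript through a full seed match.
Epas1, miR-23a, chr17:86831934-86831941, plus strand: aaaaaagcAATGTGAAgaatcaac
Maf, miR-23a, chr8:115704990-115704997, minus strand: gaaaaaaaAATGTGAAatgctata
Myo6, miR-23a, chr9:80309275-80309282, plus strand: taattgaaAATGTGAAtgaggttt
Ikzf3, miR-24, chr11:98466338-98466345, minus strand: gatttggcCTGAGCCAgaccctga
Cd28, miR-27a, chr1:60770780-60770787, plus strand: gtcatgatACTGTGAAcaaaaagg
Rora, miR-23a, chr9:69382843-69382850, plus strand: gattttgtAATGTGAAacaaagaa
Rora, miR-27a, chr9:69383510-69383517, plus strand: gttgacttACTGTGAAcgacaatc
Epas1 and Myo6 each held an 8-base site of miR-23a and no miR-24 site, yet their largest decreases were with miR-24. Maf held a site of miR-23a alone and fell by a like amount with each mimic, within the errors given above. Cd28 held an 8-base site of miR-27a and fell most with miR-27a, by 1.05. Ikzf3 held an 8-base site of miR-24 and differed by -2.22 ± 0.43 with miR-24, against -2.14 ± 0.41 with miR-27a. Other named genes called lower also had an 8-base site of only 1 mimic. Of these, Nipal1 and Acvr2a (miR-27a) and P2rx7 (miR-24) fell most with that mimic, whereas Sfrp1 and Gpd2 (miR-27a) and Rap1a (miR-24) did not. The test between the 3 mimic groups detected no difference for Ikzf3, Acvr2a or Rap1a (adjusted p = 0.403, 0.321 and 0.357). Which mimic lowered these genes most is thus not resolved. Rora had no miR-24 site in its 9285-base UTR and fell most with miR-24, by 1.86.

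Across genes with an 8-base site of exactly 1 mimic, the lowest of the 3 differences was with that mimic for 21 of 35 genes that fell, or 60.0%, against 1155 of 2333 tested genes, or 49.5%. Among the 35, this held for 6 of 14 with a miR-23a site, 4 of 6 with a miR-24 site and 11 of 15 with a miR-27a site. Over all 74 genes that fell and were searched, the lowest difference was with miR-23a for 25.7%, with miR-24 for 43.2% and with miR-27a for 31.1%. Rbl2, Mrps33, Otud1 and Cd96 were called lower with no site of any mimic in the UTR searched. A match of letters is a description and not a measured site.

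The mean difference followed the GC content of the transcripts. In 5 bins of about equal size, from the lowest to the highest GC content, the median fold change was -0.25, -0.11, -0.01, 0.19 and 0.40, and Spearman's rho across 13148 genes, which are not independent replicates, was 0.412. The median GC content was 55.3% for genes called higher, 45.9% for genes called lower and 49.6% for all. A slope of level on GC was computed for each library, in log2 units per 10 percentage points. It ran from -0.48 to 0.45 in the 12 mimic libraries and was -0.07, -0.14 and -0.67 in control replicates 2, 3 and 4 (exact permutation p = 0.0462, adjusted p = 0.438 over 19 library measures).

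A fit with each library's dependence on GC removed, added after the data were seen, called 69 genes higher (0.525% of 13148) and 97 lower (0.738%), or 1.26% in either direction. Of the 106 genes, 99 kept 3 differences of the same sign and 80 their call, 25 of 31 higher and 55 of 75 lower. Epas1 (-1.76), Sfrp1 (-1.63), Myo6 (-1.91), Ikzf3 (-1.92), Klf2 (-1.54), Sae1 (1.09) and S100a4 (1.78) remained called there. In that fit, too, leaving out control replicate 3 left 3 genes higher and 2 lower. Whether the GC trend comes from the RNA, the amplification or the cells was not tested, and with 3 control libraries it cannot be told apart from the mimics.

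**Figure D5:**
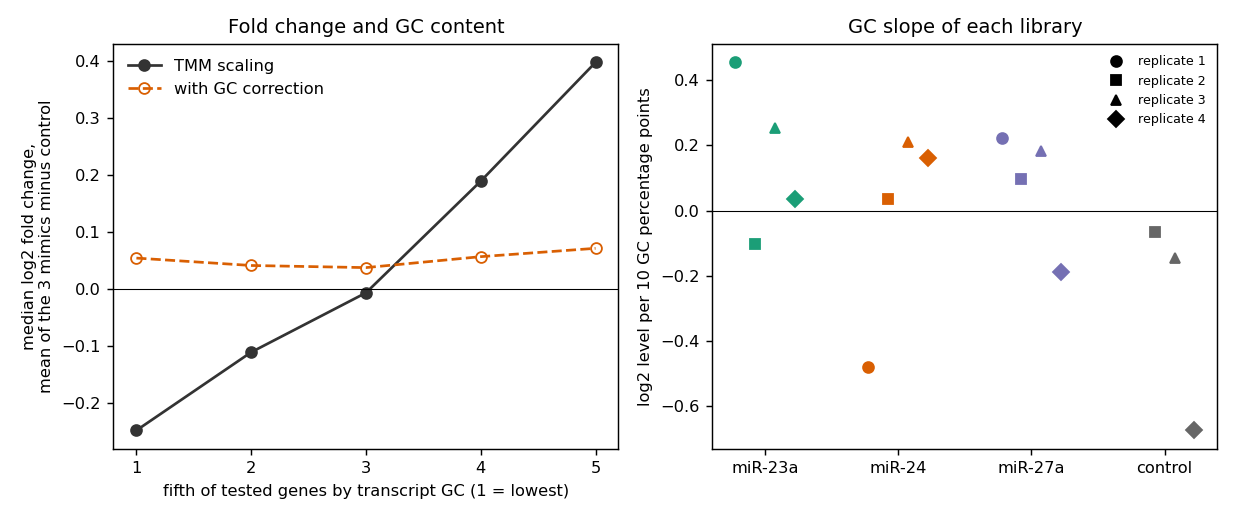
Left, median log2 fold change (mean of the 3 mimics minus control mimic, y axis) in 5 bins of tested genes by transcript GC content (x axis), from -0.25 to 0.40 with TMM scaling and flat with GC correction. Right, GC slope of each library in log2 units per 10 percentage points, with marker shape for the replicate number; the 3 control libraries lie below 0.

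Counting may have mixed overlapping genes, because the strand setting of the counter is not given in the sources used here. An exon of another gene overlaps 32 of the 106 called genes, on the other strand for 28 and on the same strand for 5. Among the called genes described, Maf, Rora, Rbl2, Wdr62, Lipe, Acvr2a and Nfatc3 have such a partner on the other strand. So do Gpd2, Shroom3, St8sia6, Runx1 and Sepp1, while S100a4 has a partner on the same strand. In bulk RNA, fewer cells of a kind and less RNA per cell cannot be told apart, and this applies to each level given above.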

How the data were processed

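RNA sequencing libraries were made from 1 ng of total RNA per sample with an amplifying kit and read as single 50-base reads, per the labels' protocols. The authors deposited raw read counts per gene symbol, 1 file per library, with 5 summary lines (reads without a gene, not unique and the like) that held 64.6% to 77.6% of all lines' reads and were left out. Bowtie2, TopHat, DESeq and mm10 are named in the submitters' processing notes; counter, annotation and strand setting are not given in the sources used here.

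The main test was edgeR 4.0.16 (R 4.3.3) on the deposited counts of 15 libraries: filterByExpr by group, TMM scaling, 4 group terms plus the replicate number, robust quasi-likelihood test, two-sided, Benjamini-Hochberg at 0.05. Residual degrees of freedom were 8. Replicate number 1 has no control here, so its 3 mimic libraries add to the spread and to the differences between mimics only. CPM values use TMM-scaled library sizes. The script was tested on simulated data.

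What the replicate number marks is not stated. After removal of group means, 18 of 21 same-number pairs of libraries correlated over 0.1 (-0.10 to 0.73, median 0.507) over 4870 genes. Of pairs with different numbers, 16 of 63 did (-0.677 to 0.614, median -0.236). Removing group means itself lowers the correlation of different-number pairs where same-number pairs are positive, so the contrast of the medians is partly built in. No 2 libraries held identical values.

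Members, lists, tests and alternatives were chosen with earlier results of these data known. Named genes were, by rule: called genes with the largest changes or the smallest p among those with a mean log2-CPM of at least 3 and 9 of 9 same-number differences in that direction, called members of the 35 programme lists, the 5 called genes with the smallest p between mimics, and Il4, Il5, Il10, Il13, Ikzf1, Dgcr8 and Tbx21. GC content was taken from GENCODE M21 transcripts for 98.7% of tested genes, and the correction was a lowess curve (span 0.3) per library. Alternatives used RLE scaling, other filters, DESeq2 1.42.0, limma 3.58.1, Rn45s terms, and each library, number or mimic group left out. Permutation tests of library measures enumerated all 455 splits of 12 and 3. Intervals from counting are not given, since reads are not independent molecules.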

Additional observations from a re-analysis of the deposited data

Results flagged for a closer look

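In groups of 4 libraries, a value was singled out where its gap to the nearest of the others, divided by the range, passed Dixon's 95% critical value. This happened in 6 of 147 groups examined, and chance gives about 1 in 20, or 7.35.

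Maf had 74.9 CPM in miR-23a replicate 1, against 178 to 186 CPM in the other 3 libraries of that group. Klf2 had 24.4 CPM in miR-23a replicate 4, against 47.0 to 51.7 CPM in the others. Chst2 had 188 CPM in miR-27a replicate 4, against 60.3 to 78.1 CPM, and Hbegf had 28.1 CPM in miR-27a replicate 3, against 8.93 to 11.9 CPM. Dgcr8 had 41.2 CPM in miR-24 replicate 1, against 49.8 to 51.0 CPM. Gene reads numbered 4086654 in miR-23a replicate 2, against 11370150 to 12582408 in the other 3 libraries.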

How the results depend on the processing

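The counts given were 31 genes higher, 75 lower and 986 differing between the mimics. Counts were within 1.5 times of these with RLE scaling, a stricter filter and Rn45s left out. In the same order, no low-count filter gave 61 and 117; all 16 libraries 77 and 113; DESeq2 418, 424 and 1813; voom with sample weights 94 and 143. An Rn45s term gave 27, 60 and 3140, with 38 of the 106 calls kept. Without the miR-23a group there were 103, 121 and 394, without the miR-24 group 394 differing, and without the miR-27a group 1, 21 and 350.

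The fit without the replicate block gave 0, 7 and 233 genes, against 31, 75 and 986 with it, and 7 of the 106 calls were kept. The numbers pair some libraries but not all by the correlation check. Whether the fit with or without the block describes these libraries better was not tested.

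Leaving out 1 library gave 1 to 302 higher, 0 to 392 lower and 458 to 1138 differing. The lowest were without control replicate 3 (1 and 0) and the highest without control replicate 2 (302 higher) and miR-24 replicate 1 (392 lower). Counts of both directions together fell most among mimic libraries without miR-24 replicate 3 (4 and 9), miR-27a replicate 2 (3 and 11), miR-27a replicate 3 (3 and 14), miR-23a replicate 4 (7 and 16), miR-24 replicate 2 (5 and 19) and miR-23a replicate 3 (15 and 36). They grew without miR-27a replicate 4 (113 and 269) and miR-23a replicate 2 (74 and 128), and without miR-27a replicate 1 there were 19 higher. Leaving out a replicate number gave 1 to 140, 1 to 327 and 36 to 1169. The cause was not tested.

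Alternatives chosen after seeing the data were these. Without miR-27a replicates 1 and 2, the shallowest, there were 2, 10 and 338. GC correction gave 69 higher, and without the block 1, 7 and 325. With GC correction and the block there were 382, 287 and 1539 without control replicate 2, 3 and 2 without control replicate 3, and 8, 21 and 1511 without control replicate 4.

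For single genes, Tbx21 changed sign with voom (-0.23), without the miR-23a group (-0.031), without the miR-24 group (-0.32) and with GC correction (-0.27, then -0.51 without control replicate 2 and -0.43 without control replicate 3). Il5 changed sign with GC correction without control replicate 3 (-0.20). Among the fits without 1 library or number, Tbx21 ranged from -0.68 to 0.35 and Il5 from -0.41 to 1.39, negative for Il5 without control replicate 3 (-0.39) or number 3. Depth limits the lowest genes: miR-27a replicate 2 held 2120408 gene reads, so that a gene at 1 CPM has few reads there.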
